A study of Mus musculus with 23 samples.

Results

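The 10 cytochrome P450 genes described here lie outside the Cyp2b, Cyp2c and Cyp3a families, and were followed in the ileum of male mice given pregnenolone 16α-carbonitrile (PCN). PCN is a ligand of the pregnane X receptor in rodents (PXR, gene Nr1i2). The genes were Cyp2j5, Cyp2j6, Cyp2j9, Cyp2d10, Cyp2d26, Cyp2s1, Cyp4b1, Cyp4f13, Cyp4f14 and Cyp4f16, 10 of the 24812 genes named on the array. All 17 probes that carried 1 of these gene names in the scanner files were taken, of 56605 probes in all. The question for each gene was whether PCN raised it, lowered it or left it within a stated margin, and whether its level differed between genotypes.

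RNA of 4 groups was compared, each sample hybridized to 1-colour Agilent arrays. WT CONT (6 arrays) were wild-type C57BL/6J mice injected with corn oil, and WT PCN (5 arrays) were wild-type mice injected with PCN in corn oil at 100 mg/kg once a day for 4 days. Pxr-/- CONT (6 arrays) and Pxr-/- PCN (6 arrays) were mice without the receptor, backcrossed on the same strain, that received the same oil or PCN. Every mouse was killed at ZT 6, which was 6 h after its last injection, in a state that the labels call fed and the study's text semi-fasted. Wild-type mice were purchased at 6 weeks of age, and all mice were acclimatized for 2 weeks before allocation to the groups. Pxr-/- mice had instead been bred for 10 years in the animal facility, and no age is given for them. Genotype and origin therefore cannot be told apart in any comparison of Pxr-/- with WT mice. The labels allocate 6 mice to each group and say nothing of pooled RNA. Of 7 genes listed for ileum (Fabp6, Slc10a2, Slc51a, Slc51b, Fgf15, Guca2a and Cubn), 7 were above background on all 23 arrays. So were 3 of 6 markers of proximal small intestine and 4 of 6 of hepatocytes, and 60.9% to 67.3% of all probes were above background per array. This mark alone therefore does not single out the ileum. Of the genes listed for ileum, Cubn, a receptor for vitamin B12 bound to intrinsic factor, was called higher with PCN in Pxr-/- mice (0.61 ± 0.16, adjusted p = 0.0405). The arrays were washed in 2 batches that each held every group. On 2 arrays (WT PCN replicates 2 and 3) the mean of 7 B cell markers was 9.83 and 9.87 on the log2 scale, against 6.85 to 8.43 on the other 21. The 8.43 was Pxr-/- PCN replicate 1, and the next highest array was Pxr-/- PCN replicate 3 at 7.42. On replicate 3 of Pxr-/- CONT and replicate 3 of Pxr-/- PCN, Car1, a colon gene, read 11.38 and 13.84, against 6.04 to 7.03 elsewhere.

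Cytochrome P450 enzymes are haem proteins of the endoplasmic reticulum that insert 1 oxygen atom into a substrate, using electrons passed on by P450 oxidoreductase (Por) and cytochrome b5 (Cyb5a). Enzymes of the Cyp2j family turn arachidonic acid into epoxides. Enzymes of the Cyp2d family are relatives of human CYP2D6, which oxidizes many drugs. Cyp2s1 is an epithelial P450 that responds to the aryl hydrocarbon receptor, and Cyp4 enzymes hydroxylate fatty acids and eicosanoids at the end of the chain. PXR is a nuclear receptor that, once bound by a ligand, sits on DNA together with the retinoid X receptor and switches genes on. The best known of these belong to other P450 families. From those, 3 genes served as a check of the treatment, and PCN raised each in WT mice, by 3.53 ± 0.32 (SE) on the log2 scale for Cyp3a11, 4.61 ± 0.36 for Cyp2b10 and 3.51 ± 0.47 for Cyp2c55.

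A probe is printed for each of 3 genes with a called difference, described further on. They are shown because genes of these families lie side by side and are alike in sequence, so that a probe for 1 gene could bind the transcript of another. Each is a 60-base oligonucleotide as listed in the scanner files, with its position on mouse build mm9. Capitals mark the longest run of bases that the probe shares with a probe for another gene of the same family on the array. For Cyp2d10 the probe lies at chr15:82233388-82233447 on the minus strand, and its longest shared run is 11 bases, with a Cyp2d11 probe.
Cyp2d10: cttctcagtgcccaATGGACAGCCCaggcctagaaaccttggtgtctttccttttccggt
For Cyp2d26 the less bright of its probes is shown, at chr15:82621770-82621829 on the minus strand, which shares 8 bases with a Cyp2d13 probe.
Cyp2d26: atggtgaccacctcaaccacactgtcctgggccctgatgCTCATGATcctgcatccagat
For Cyp4f16 the less bright of its probes is shown too, at chr17:32682033-32682092 on the plus strand, which shares 9 bases with a probe for Cyp4f41-ps.
Cyp4f16: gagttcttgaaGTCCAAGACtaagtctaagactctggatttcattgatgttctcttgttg
This Cyp4f16 probe is also annotated to a transcript of Cyp4f37, so its signal may come from either gene. The brighter probes of Cyp2d26 and Cyp4f16, from which their values are taken, share at most 7 bases with such probes, and the Cyp4b1 probe shares 12 with a probe for Cyp4b1-ps2. The other 16 member probes carried transcripts of their own gene only in the array annotation. Binding to transcripts of related genes beyond these probe-to-probe runs was not tested.

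Not all members were measurable. Of the 17 probes, 13 were well above background on all 23 arrays and were tested, and they covered 9 of the 10 genes. Both probes for Cyp2j5, an epoxygenase abundant in mouse kidney and liver, were not well above background on any of the 23 arrays, and no change is given for this gene. A second probe for Cyp2s1 was likewise above background on 0 arrays. A second probe for Cyp2j9 was above background on 1 of 6, 2 of 5, 2 of 6 and 0 of 6 arrays of WT CONT, WT PCN, Pxr-/- CONT and Pxr-/- PCN. None of these 4 probes passed the detection filter. Where a gene had more than 1 tested probe (Cyp2j6, Cyp2d26, Cyp4f13 and Cyp4f16), the brighter is given and the other is set beside it. All levels are log2 median signals after quantile normalization, so that a difference of 1 is a doubling, and levels of different probes are not compared with each other.

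**Figure D1:**
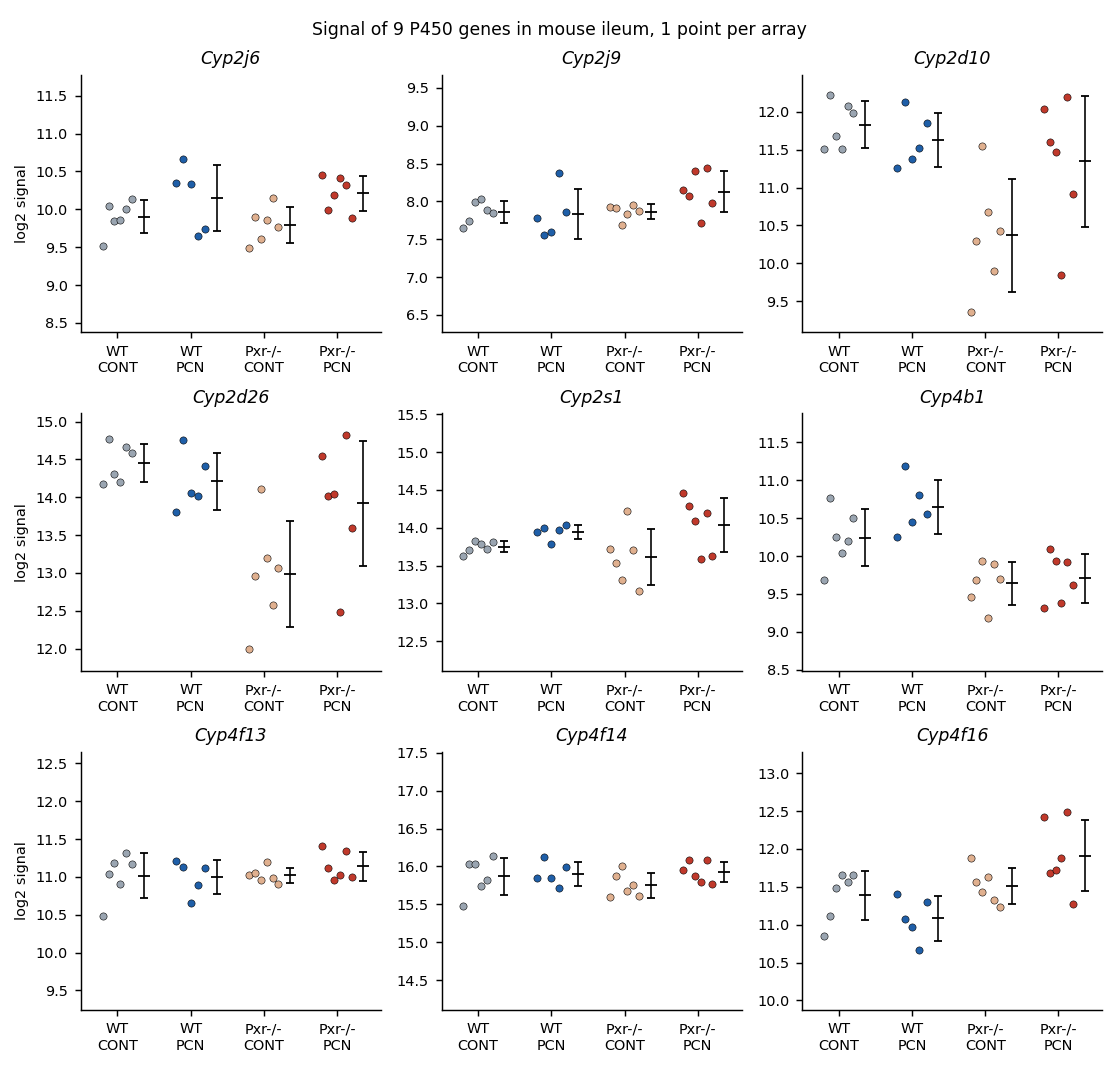
Signal of the 9 measurable P450 genes on every array. Each point is 1 array, on a log2 axis that spans 3.4 units in every panel, and the bar beside each group is its mean ± SD. Cyp2d10 and Cyp2d26 spread widely in both Pxr-/- groups, while all arrays of Cyp4f14 lie between 15.48 and 16.14.

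In WT mice 0 of the 9 measurable members were called for PCN. A member was called when the limma test across all probes gave an adjusted p of at most 0.05 and the change was over 1.5-fold, and 0.689% of the 37591 tested probes were called in this comparison. The 9 members changed by between -0.33 and 0.40 on the log2 scale, with a median of -0.03 beside -0.02 over all 17726 tested genes. Cyp4b1 alone had an unadjusted p under 0.05, a mark that 11.8% of all probes reached, and adjusted p-values ran from 0.419 to 0.968. No member was called higher or lower, whereas 0.599% of all probes were called higher and 0.0904% lower. The WT CONT and WT PCN arrays overlapped for all 9 members, while they did not for 2.46% of all probes.

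A change that was not called can still be large, so the 95% interval of each change was set against 1.5-fold in either direction (0.58 on the log2 scale). In WT mice the whole interval lay inside that margin for 5 members, namely Cyp2j6, Cyp2j9, Cyp2s1, Cyp4f13 and Cyp4f14, as it did for 90.0% of all tested probes. For the other 4, Cyp2d10, Cyp2d26, Cyp4b1 and Cyp4f16, the interval reached past it and the size of the change was not settled. The margin was narrow for Cyp2j6, whose interval ended at 0.58 and left the margin in 3 of 14 alternative analyses and with any 1 of 13 arrays left out. For Cyp2j9, Cyp4f13 and Cyp4f14 the interval stayed inside in all 14 alternatives and with each of the 23 arrays left out in turn, and for Cyp2s1 in all 14 and 22 of 23. These 14 are only part of the 18 alternatives described further on. Fits within a wash batch, or without the pair of arrays high in B cell markers, are not among them. Whether the intervals stayed inside the margin in those smaller fits is not given.

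**Figure D2:**
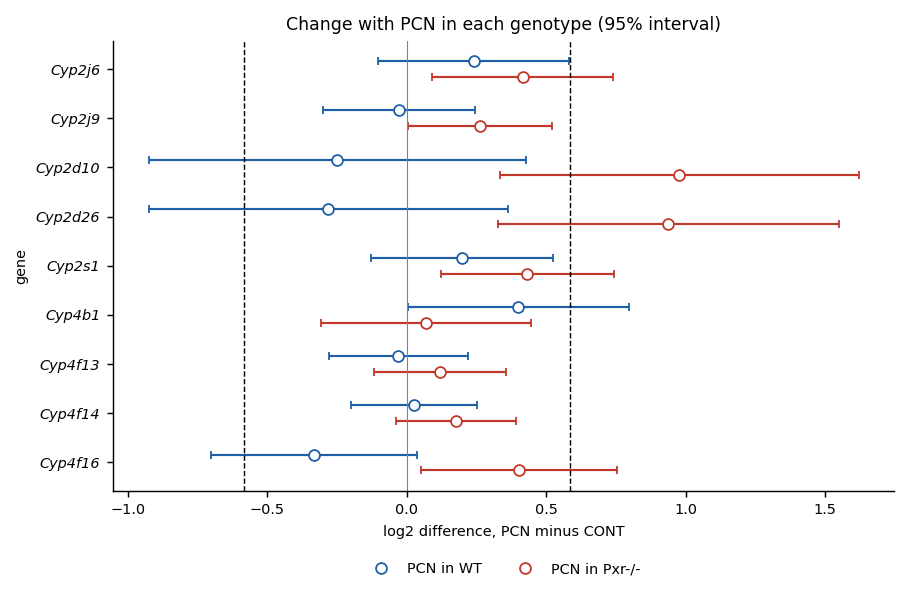
Change of each member with PCN, in WT mice (blue) and in Pxr-/- mice (red). Points are log2 differences, PCN minus CONT, bars are 95% intervals and dashed lines mark 1.5-fold. No point is filled because none was called. In WT mice the changes lie on both sides of 0, and in Pxr-/- mice all 9 are above 0, up to 0.98 for Cyp2d10.

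In Pxr-/- mice limma also called 0 of the 9 members for PCN, where 0.939% of all probes were called, 0.716% higher and 0.223% lower. All 9 members had a change above 0, from 0.07 to 0.98, with a median of 0.40 beside 0.00045 over all tested genes. The groups overlapped for all 9 members (not for 2.28% of all probes). Of the 9, 6 had an unadjusted p under 0.05, against 19.5% of all probes, and adjusted p-values ran from 0.076 to 0.876. The interval lay within 1.5-fold for Cyp2j9, Cyp4b1, Cyp4f13 and Cyp4f14 (89.1% of all probes), and was not settled for the other 5. The changes of several members were larger within wash batch 2 than within batch 1, while that of Cyp4b1 was smaller. Within batches 1 and 2 the change was 0.13 and 0.70 for Cyp2j6, 0.025 and 0.50 for Cyp2j9, 0.11 and 0.70 for Cyp4f16, -0.035 and 0.27 for Cyp4f13, 0.11 and 0.24 for Cyp4f14, and 0.11 and 0.025 for Cyp4b1, none of them called. Whether the batches differ was not tested, and the values for the other members stand beside their results. In the same comparison 3 of 7 neutrophil, 3 of 6 smooth muscle and 3 of 6 fibroblast markers were called higher, and their part in the P450 values was not tested. The difference between the PCN effects of the genotypes (the interaction) was called for 0 of 9 members, with adjusted p-values of at least 0.769, and for 0.0771% of all probes. Its interval lay within 1.5-fold for Cyp4f13 and Cyp4f14 only (81.3% of all probes). Cyp2d10, Cyp2d26 and Cyp4f16 had an unadjusted p under 0.05 in that test, as did 4.49% of all probes.

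Among the epoxygenases, Cyp2j6 is the family member known from the small intestine. Its lowest, median and highest signals were 9.52, 9.93 and 10.14 in WT CONT, 9.49, 9.81 and 10.16 in Pxr-/- CONT and 9.89, 10.26 and 10.46 in Pxr-/- PCN. The 5 WT PCN arrays read 9.64, 9.74, 10.33, 10.35 and 10.67. All groups overlapped, although 3 of the 5 WT PCN arrays lay above every WT CONT array. Of these, the arrays at 10.67 and 10.33 were replicates 2 and 3, the pair high in B cell markers. The change with PCN was 0.24 ± 0.16 (SE; interval -0.10 to 0.58, adjusted p = 0.627) in WT and 0.42 ± 0.16 (0.09 to 0.74, adjusted p = 0.142) in Pxr-/- mice. Its second probe changed by 0.26 and 0.27. Without the pair high in B cell markers the change in WT was 0.0012 (adjusted p = 0.999), and with any 1 array left out it lay between 0.11 and 0.37.

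Cyp2j9 is a family member first known from brain. It ranged from 7.65 to 8.03 in WT CONT, from 7.56 to 8.37 in WT PCN, from 7.69 to 7.96 in Pxr-/- CONT and from 7.72 to 8.44 in Pxr-/- PCN. The highest arrays of both PCN groups lay above all CONT arrays, and no pair of groups separated. The change was -0.03 ± 0.13 (-0.30 to 0.24, adjusted p = 0.968) in WT and 0.26 ± 0.12 (0.00 to 0.52, adjusted p = 0.249) in Pxr-/- mice. Of 7 further Cyp2j genes listed, 3 were on the array and 2 passed the detection filter. Neither was called in any comparison, with changes in WT of 0.21 for Cyp2j8 and 0.13 for Cyp2j13. In Pxr-/- mice Cyp2j8 changed by 0.50 at an adjusted p of 0.0357, which is below 1.5-fold.

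The Cyp2d genes were the members with the widest spread. Cyp2d26 had its lowest, median and highest signals at 14.18, 14.45 and 14.77 in WT CONT and at 11.99, 13.01 and 14.10 in Pxr-/- CONT. These groups did not overlap, as was the case for 0.984% of all probes. Without PCN, Cyp2d26 was 2.77-fold lower in Pxr-/- than in WT mice, a log2 difference of -1.47 ± 0.29 (-2.08 to -0.86, adjusted p = 0.0332, limma). Its second probe gave -1.22 ± 0.26 (adjusted p = 0.0455).

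Cyp2d10 ran from 11.50 through 11.83 to 12.23 in WT CONT and from 9.36 through 10.36 to 11.55 in Pxr-/- CONT. These ranges overlapped by 1 array of Pxr-/- CONT (replicate 3), yet all 6 Pxr-/- CONT arrays lay below the mean of WT CONT. The difference without PCN was -1.46 ± 0.31 (-2.11 to -0.82, adjusted p = 0.0493), or 2.75-fold lower in Pxr-/- mice. These were 2 of 9 members called lower, where 0.141% of all probes were called in either direction and 0.104% lower. The signals of the pair followed each other closely over the arrays (SD of their difference 0.073), so they do not count as separate calls. The members were also chosen with earlier results of these data known. Of the 9, 3 had an unadjusted p under 0.05 (8.88% of all probes), the other being Cyp4b1, and the interval lay within 1.5-fold for 6 (92.4% of all probes). In this bulk tissue, fewer cells of a type and less RNA per cell cannot be told apart.

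These Cyp2d calls stood close to the threshold. The Cyp2d10 call was lost, at adjusted p-values of 0.0505 to 0.166, without any 1 of 17 arrays: WT CONT replicates 1, 2, 3, 5 and 6, Pxr-/- CONT replicates 1, 2, 5 and 6, every WT PCN array, and Pxr-/- PCN replicates 2, 3 and 6. The Cyp2d26 call was lost, at 0.0619 to 0.118, without any 1 of the same 9 CONT arrays. The difference itself stayed between -1.66 and -1.20 for both genes with any 1 array left out. Within wash batch 1 it was -1.43 for Cyp2d10 and -1.45 for Cyp2d26, and within wash batch 2 it was -1.49 for both, with adjusted p-values of 0.388 to 0.646 in these smaller fits.

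With PCN the Cyp2d levels of the genotypes overlapped. The 5 WT PCN arrays read 13.81, 14.02, 14.06, 14.42 and 14.76 for Cyp2d26 and 11.26, 11.37, 11.52, 11.85 and 12.13 for Cyp2d10. Pxr-/- PCN ran from 12.49 through 14.03 to 14.82 for Cyp2d26 and from 9.84 through 11.54 to 12.20 for Cyp2d10. Replicate 4 was the lowest for both genes, and the other 5 arrays began at 10.91 for Cyp2d10. The genotype difference with PCN was -0.25 ± 0.31 for Cyp2d26 (-0.33 by its second probe) and -0.24 ± 0.33 for Cyp2d10, and was not called.

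The change with PCN in WT mice was -0.28 ± 0.31 (-0.92 to 0.36, adjusted p = 0.796) for Cyp2d26 and -0.25 ± 0.33 (-0.93 to 0.43, adjusted p = 0.841) for Cyp2d10. In Pxr-/- mice it was 0.94 ± 0.29 (0.33 to 1.55, adjusted p = 0.076) and 0.98 ± 0.31 (0.33 to 1.62, adjusted p = 0.0793). The latter changes missed the threshold. Within wash batch 1 they were 0.45 (adjusted p = 0.821) for Cyp2d26 and 0.50 (adjusted p = 0.828) for Cyp2d10, and within wash batch 2 they were 1.42 and 1.46 (adjusted p = 0.126 for both). In fits of both batches they passed it, at 1.19 to 1.25 with adjusted p-values of 0.0162 and 0.0169, without Pxr-/- PCN replicate 4, and at 1.13 and 1.18 with 0.0384 and 0.0393 without Pxr-/- CONT replicate 3. The interaction was -1.22 ± 0.43 for Cyp2d26 (adjusted p = 0.890) and -1.23 ± 0.45 for Cyp2d10 (adjusted p = 0.989). The second Cyp2d26 probe gave smaller values. It changed with PCN by -0.21 in WT and by 0.68 ± 0.26 (adjusted p = 0.145) in Pxr-/- mice, with an interaction of -0.89 ± 0.37 (adjusted p = 0.999). The Pxr-/- PCN change and the genotype difference without PCN share the 6 Pxr-/- CONT arrays, so they are not independent of each other.

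**Figure D3:**
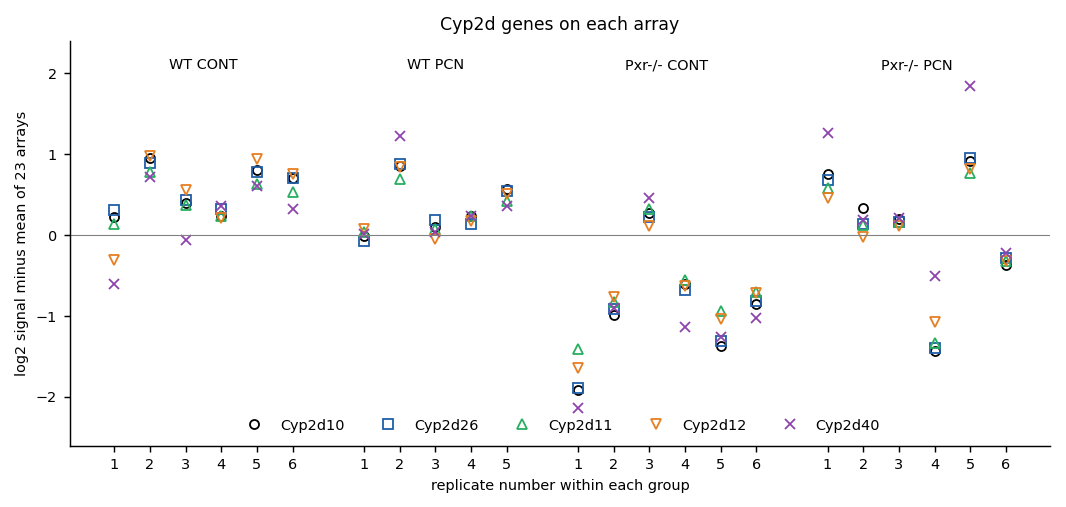
Cyp2d genes on each of the 23 arrays. The vertical axis is the log2 signal of each gene minus its mean over all arrays, and the horizontal axis numbers the replicates within each group, which have no order. Symbols of the genes lie close together on most arrays, with 5 of 6 Pxr-/- CONT arrays below 0 for Cyp2d10, down to -1.92.

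Cyp2d10 and Cyp2d26 followed each other closely over the arrays. The difference of their log2 signals had an SD of 0.073 over the 23 arrays, while each alone had an SD of 0.82 and 0.80. Likeness to other genes was measured as the root mean square difference of signals centred on each probe's mean, over 23 arrays, a comparison chosen after the values of these genes were seen. Among all named genes the 4 nearest to Cyp2d10 were Cyp2d26 (0.071), Cyp2d11 (0.18), Cyp2d12 (0.21) and Cyp2d40 (0.41), all on chromosome 15. Cyp2d26 had the same neighbours, with Cyp2d10 first (0.071) and then Cyp2d11 (0.17), Cyp2d12 (0.20) and Cyp2d40 (0.41). The second Cyp2d26 probe lay at 0.18 from the first, farther than the Cyp2d10 probe did. The run of 11 bases given above for the Cyp2d10 probe compares probes only. Whether this probe binds transcripts of other Cyp2d genes was not tested.

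Of 9 further Cyp2d genes listed, 8 were on the array and all 8 passed the detection filter. Without PCN all 8 had a difference below 0 in Pxr-/- mice, with a median difference of -0.35 beside -0.0031 over all tested genes, and 1 was called. That was Cyp2d12, at -1.30 ± 0.26 (adjusted p = 0.0324). Cyp2d40 differed by -1.23 (adjusted p = 0.157) and Cyp2d11 by -1.13 (adjusted p = 0.0633). With PCN in Pxr-/- mice, 7 of the 8 had a change above 0 and Cyp2d40 was called, at 1.46 ± 0.34 (adjusted p = 0.0186). None of the 8 was called for PCN in WT mice. Cyp2d genes are strongly expressed in liver. Of 6 hepatocyte markers, 4 were above background on all arrays and 0 were called. Their mean was 7.64 to 8.93 on WT CONT arrays (median 7.80) and 7.58 to 7.81 on Pxr-/- CONT arrays (median 7.71). With PCN it was 7.16 to 7.74 on WT arrays and 7.27 to 7.55 on Pxr-/- arrays. Albumin, the defining one of the 6, ran from 6.13 to 8.79 in WT CONT and up to 6.63 in Pxr-/- CONT, and its part in the Cyp2d values was not tested.

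The promoters of Cyp2d10 and Cyp2d26 are printed because their levels followed each other. They run from 250 bases before to 50 after the start point that the RefSeq promoter table uses for each gene (build GRCm38.p6), both on the minus strand. The RefSeq gene table places the outer ends of the genes farther out, at 82407253 for Cyp2d10 and 82794452 for Cyp2d26, inside the windows. The capitals mark the longest run that the pair shares.
Cyp2d10 promoter, chr15:82407145-82407444: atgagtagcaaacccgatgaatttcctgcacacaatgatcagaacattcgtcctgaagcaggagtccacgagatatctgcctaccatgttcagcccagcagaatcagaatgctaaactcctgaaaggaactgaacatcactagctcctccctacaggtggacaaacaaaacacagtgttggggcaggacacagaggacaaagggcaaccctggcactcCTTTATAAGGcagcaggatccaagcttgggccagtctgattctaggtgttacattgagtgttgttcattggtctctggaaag
Cyp2d26 promoter, chr15:82794196-82794495: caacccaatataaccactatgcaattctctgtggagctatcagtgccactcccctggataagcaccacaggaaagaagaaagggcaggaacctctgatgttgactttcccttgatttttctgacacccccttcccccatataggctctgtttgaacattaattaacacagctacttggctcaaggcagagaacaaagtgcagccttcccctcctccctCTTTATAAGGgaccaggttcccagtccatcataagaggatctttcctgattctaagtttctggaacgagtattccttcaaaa
The shared run, CTTTATAAGG, is 10 bases long and begins 32 bases before the start point of that promoter table in both genes. It holds TATAA, the core of a TATA box, but by the outer ends of the RefSeq gene table it lies within both genes. The run was found on the same strand in all 5 Cyp2d promoters of the table (Cyp2d9, Cyp2d10, Cyp2d11, Cyp2d26 and Cyp2d40). It was found in 19 of all 32851 promoters, or 0.0578%. Cyp2d9, which holds it too, was above background on 12 arrays only, at group means of 5.38 to 5.57. No Cyp2d12 promoter was among these 5. Whether the run has a part in the levels of these genes was not tested.

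PXR binds pairs of a 6-base half-site, so the promoters of all 10 members were searched on both strands for AGGTCA and AGTTCA and for direct repeats of these with 3 or 4 bases between them. All 10 genes matched, with 13 promoters between them. Cyp2j5 and Cyp4f13 held 1 half-site each, while 27.7% of all promoters held at least 1. No member promoter held a direct repeat of either spacing, as was so for nearly all promoters (0.0122% held the first and 0.0274% the second). These windows do not include distant enhancers.

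Cyp2s1 was steady in WT mice and more scattered without the receptor. It ran from 13.63 through 13.75 to 13.82 in WT CONT, and the WT PCN arrays read 13.79, 13.94, 13.97, 13.99 and 14.03. Pxr-/- CONT ran from 13.17 through 13.62 to 14.21 and Pxr-/- PCN from 13.59 through 14.15 to 14.45. The group SDs were 0.07 and 0.09 in WT and 0.37 and 0.36 in Pxr-/- mice, a difference in spread that was not tested. Of the 5 WT PCN arrays, 4 lay above every WT CONT array, and the change in the fit, which pools the spread of all groups, was 0.20 ± 0.16 (-0.13 to 0.52, adjusted p = 0.689). In Pxr-/- mice the change was 0.43 ± 0.15 (0.12 to 0.74, adjusted p = 0.106). It was 0.85 within wash batch 2, where it was called (adjusted p = 0.0375), and 0.01 within wash batch 1. Among 6 genes of the aryl hydrocarbon receptor battery, 4 were tested and none was called in any comparison.

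Cyp4b1, a fatty acid hydroxylase best known from lung, had the highest value of the members for PCN in WT mice, without being called. It ran from 9.68 through 10.23 to 10.77 in WT CONT, and the WT PCN arrays read 10.25, 10.45, 10.56, 10.80 and 11.18. All 5 lay above the mean of WT CONT, with overlapping ranges. The change was 0.40 ± 0.19 (0.00 to 0.80, adjusted p = 0.419) in WT and 0.07 ± 0.18 (-0.31 to 0.45, adjusted p = 0.876) in Pxr-/- mice. Pxr-/- CONT ran from 9.18 through 9.69 to 9.94 and Pxr-/- PCN from 9.31 through 9.77 to 10.10.

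Between PCN-treated genotypes Cyp4b1 was lower without the receptor. The Pxr-/- PCN arrays all lay below the WT PCN arrays, a separation that 0.998% of all probes showed, and the difference was -0.93 ± 0.19 (-1.33 to -0.54, adjusted p = 0.0189), or 1.91-fold. Without PCN it was -0.60 ± 0.18 (-0.98 to -0.22, adjusted p = 0.222), which was not called although all 6 Pxr-/- CONT arrays lay below the mean of WT CONT. Whether these differences are unequal is the interaction test, which gave 0.33 ± 0.26 (adjusted p = 0.999). The call with PCN was lost without WT PCN replicate 2 (-0.81, adjusted p = 0.0743), without WT PCN replicate 4 (-0.87, adjusted p = 0.0645) and without Pxr-/- PCN replicate 1 (-0.83, adjusted p = 0.0573). Within wash batches 1 and 2 the difference was -0.93 and -0.95, with adjusted p-values of 0.468 and 0.318.

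Cyp4f enzymes inactivate leukotrienes and oxidize long-chain fatty acids, and 3 of them were members. For Cyp4f14 and Cyp4f13 every comparison had an interval within 1.5-fold. Cyp4f14 had medians of 15.92, 15.85, 15.71 and 15.92 in WT CONT, WT PCN, Pxr-/- CONT and Pxr-/- PCN, with SDs of 0.14 to 0.24. Its change with PCN was 0.03 ± 0.11 (-0.20 to 0.25) in WT and 0.18 ± 0.10 (-0.04 to 0.39) in Pxr-/- mice. Cyp4f13 had its lowest array at 10.49 and its highest at 11.40, and changed by -0.03 ± 0.12 (-0.28 to 0.22) and 0.12 ± 0.11 (-0.12 to 0.36). Its second probe changed by 0.01 and 0.03. The genotype differences of both genes lay between -0.12 and 0.15.

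Cyp4f16 was the member with the lowest value for PCN in WT mice. It ran from 10.86 through 11.53 to 11.65 in WT CONT, and the WT PCN arrays read 10.66, 10.97, 11.07, 11.30 and 11.40. Of the 5 WT PCN arrays, 4 lay below the mean of WT CONT, and the ranges overlapped. The change was -0.33 ± 0.18 (-0.70 to 0.03, adjusted p = 0.488), and its second probe gave the same value, -0.33. Pxr-/- CONT ran from 11.23 through 11.50 to 11.88 and Pxr-/- PCN from 11.27 through 11.80 to 12.49, a change of 0.40 ± 0.17 (0.05 to 0.75, adjusted p = 0.188). The interaction was -0.74 ± 0.25 (adjusted p = 0.769). The second probe gave a change of 0.24 ± 0.17 (-0.11 to 0.59, adjusted p = 0.452) in Pxr-/- mice. Its interaction was -0.57 ± 0.25 (adjusted p = 0.999).

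With PCN, Cyp4f16 was higher in Pxr-/- than in WT mice by 0.86 ± 0.18 (0.49 to 1.23, adjusted p = 0.0202), or 1.81-fold. Together with Cyp4b1 it made 2 of 9 members called in that comparison, 1 higher and 1 lower, where 0.364% of all probes were called, 0.0612% higher and 0.303% lower. Of the 9, 3 had an unadjusted p under 0.05 (7.07% of all probes), Cyp2j9 being the other at 0.30 (adjusted p = 0.621), and the interval lay within 1.5-fold for 5 (91.8% of all probes). All 6 Pxr-/- PCN arrays lay above the mean of WT PCN, and the ranges overlapped. Its second probe, which may also bind Cyp4f37, gave 0.57 ± 0.18 (adjusted p = 0.267), and the mean of both probes gave 0.71 (adjusted p = 0.0585), so the call rests on the brighter probe. It was lost without WT PCN replicate 2 (0.83, adjusted p = 0.0612), WT PCN replicate 4 (0.79, adjusted p = 0.0702) or Pxr-/- PCN replicate 1 (0.78, adjusted p = 0.0616), the same arrays as for Cyp4b1. Within wash batches 1 and 2 the difference was 0.80 and 0.95, with adjusted p-values of 0.456 and 0.223. Without PCN it was 0.12 ± 0.17 and lay within 1.5-fold (-0.23 to 0.47).

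**Figure D4:**
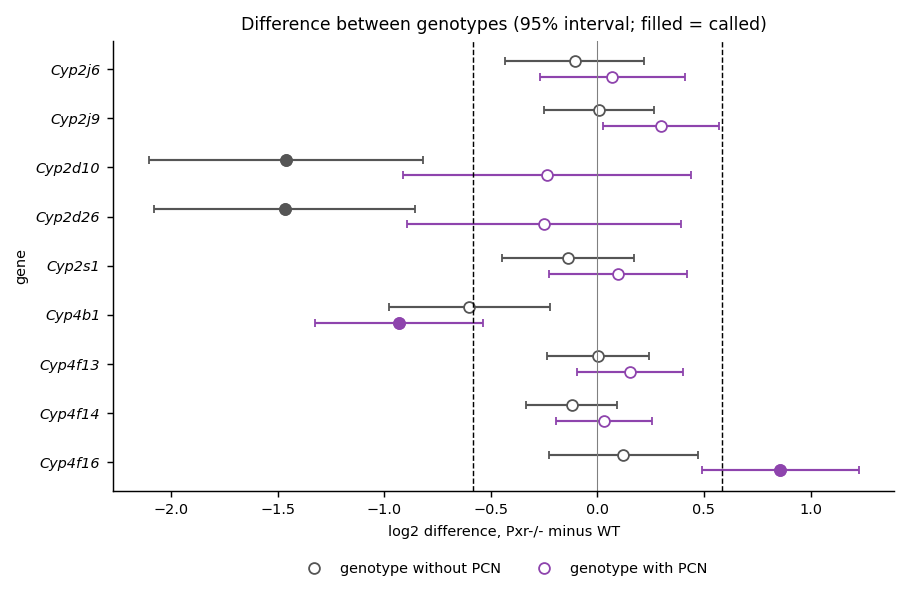
Difference between genotypes for each member, without PCN (grey) and with PCN (purple). Points are log2 differences, Pxr-/- minus WT, bars are 95% intervals, dashed lines mark 1.5-fold and filled points were called. Cyp2d10 and Cyp2d26 are called without PCN, at -1.46 and -1.47, and Cyp4b1 and Cyp4f16 with PCN, at -0.93 and 0.86.

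By the same measure of likeness, also applied after the values were seen, the genes nearest to Cyp4f16 were Cyp4f17 (0.23), Ptgr1 (0.26) and Cnpy1 (0.28). Cyp4f17 lies beside Cyp4f16 on chromosome 17, and Ptgr1 is an enzyme that acts on leukotrienes and prostaglandins. Cyp4f17 differed by 0.37 (adjusted p = 0.380). Nearest to Cyp4b1 were Nxph3 (0.27), Gnb5 (0.29) and Plekha8 (0.29), on 3 other chromosomes. Of 17 further Cyp4 genes listed, 16 were on the array, 8 passed the detection filter and 0 were called in any comparison. Cyp4f18 changed by 0.46 with PCN in WT mice at an adjusted p of 0.0262, short of 1.5-fold.

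**Figure D5:**
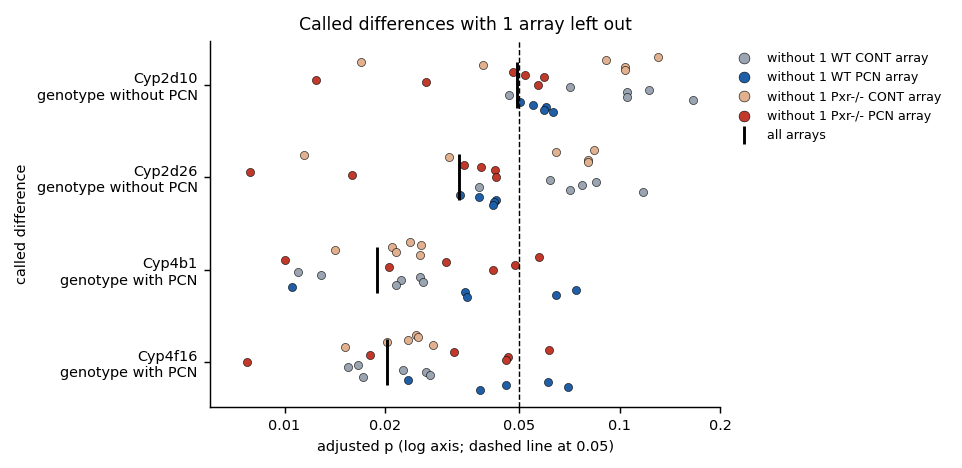
Adjusted p of the 4 called genotype differences with 1 array left out at a time, on a log axis. Each point is the fit without 1 array, coloured by the group of that array, black bars are the fit of all 23 arrays and the dashed line is at 0.05. Points cross the line in 17 of 23 fits for Cyp2d10, 9 for Cyp2d26 and 3 each for Cyp4b1 and Cyp4f16.

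Of the proteins that pass electrons to these enzymes, 2 of 6 listed were called for PCN in WT mice, Por at 0.62 ± 0.11 (adjusted p = 0.00292) and Cyb5a at 0.72 ± 0.10 (adjusted p = 0.000225). Por changed by 0.38 in Pxr-/- mice (adjusted p = 0.0415), short of 1.5-fold. Cyb5a was also called between genotypes with PCN, Pxr-/- minus WT being -0.87 ± 0.10. Of 17 listed enzymes that release, oxidize or hydrolyse arachidonic acid and its epoxides, 16 were tested and none was called for PCN in WT mice. In Pxr-/- mice 1 was called, Alox5ap (0.61 ± 0.16, adjusted p = 0.0385), which supplies arachidonic acid to lipoxygenase. Between genotypes with PCN 1 was called, Ptgr1 (0.60 ± 0.12, adjusted p = 0.0208), whose array values lay close to those of Cyp4f16, so that its call is no separate support for that gene. Among 36 P450 genes of other families listed, 20 were tested, 0 were called in WT and 2 in Pxr-/- mice, Cyp7b1 (0.67 ± 0.12) and Ptgis (0.73 ± 0.17).

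The called differences were refitted without the arrays that stood apart. Without the pair of arrays high in B cell markers the difference with PCN was -0.82 (adjusted p = 0.147) for Cyp4b1 and 0.84 (adjusted p = 0.133) for Cyp4f16, and neither was called. Pxr-/- PCN replicate 1, with a B cell mean of 8.43, was kept in that fit. Without the pair high in Car1, the difference without PCN was -1.66 for both Cyp2d10 (adjusted p = 0.0264) and Cyp2d26 (adjusted p = 0.0172).

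Other markers moved with PCN. The mean of 7 neutrophil markers was 7.14 to 7.69 in WT CONT and 7.33 to 7.85 in Pxr-/- CONT, and 7.73 to 8.72 in WT PCN and 8.02 to 9.26 in Pxr-/- PCN, with 3 of the 7 above background on all arrays. In WT mice 2 of 7 neutrophil, 0 of 6 smooth muscle and 1 of 6 fibroblast markers were called higher with PCN. The mean of 8 epithelial markers lay between 15.42 and 15.89 over all arrays, with 0 called in any comparison, and none of 8 enterocyte markers was called. The part of these other cells in the P450 values was not tested. Nr1i2 itself read 11.82 to 12.36 in WT CONT and 11.42 to 12.27 in Pxr-/- CONT and was not called (-0.41, adjusted p = 0.336). Where its probe lies relative to the deleted part is not given in the sources used here, so it does not check the genotype labels. Without PCN, Pxr-/- minus WT was -1.81 for Cyp3a11 and -4.63 for Cyp2c55, and both were called.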

How the data were processed

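Ileum RNA of 23 mice (150 ng each) was labelled with Cy3. The authors read the arrays with Agilent Feature Extraction 10.10.1.1, and the deposited scanner values are intensity on a linear scale. A deposited table holds log2 values for 37161 probes, which per the study's methods were filtered, corrected for wash batch and normalized with CrossNorm by the authors. All 23 of its columns hold identical sorted values, with a median of 8.02. Set against the log2 scanner signals the columns have slopes of 0.975 to 1.03, with no centring of genes.

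Levels are log2 median signals without control and outlier spots, averaged per probe and quantile normalized. Probes well above background on 50% or more of the arrays in any group were tested. Limma 3.58.1 (R 4.3.3) fitted the 4 groups and the wash batch to 37591 probes, with Benjamini-Hochberg adjustment per contrast. The fit was tested on simulated data. Member changes from the deposited table, fitted likewise, differed by at most 0.0073 from those given here. In both, all arrays share a common distribution of values, so this closeness is no independent check of the normalization. Wash batch 1 held 3, 2, 3 and 3 arrays of WT CONT, WT PCN, Pxr-/- CONT and Pxr-/- PCN, and wash batch 2 held 3 of each. Between 60.9% and 67.3% of probes were above background per array, and the number of arrays limits the precision.

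All members were named whatever they showed, and from the other lists genes called in at least 1 comparison, up to 4 per list. Cyp2d9, Cyp2d11, Cyp2j8, Cyp2j13, Cyp4f17, Cyp4f18 and the genes named for likeness were chosen after their values were seen. Members and lists were chosen with earlier results of these data known. Symbols were matched through RefSeq. Alternatives changed the normalization, background correction, filter, batch terms, samples and thresholds.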

Additional observations from a re-analysis of the deposited data

How the results depend on the processing

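All comparisons were recomputed under 18 alternatives, of which 2 (the B cell arrays or the Car1 arrays left out) were chosen after seeing the data, and without each of the 23 arrays in turn. Without the Car1 arrays, 1 member was called for PCN in Pxr-/- mice, Cyp2d26 at 1.14 (adjusted p = 0.0498), and within wash batch 2 it was Cyp2s1, while leaving out 1 array gave 0 to 2 calls. For PCN in WT mice and for the interaction, 0 members were called under every alternative that gave a value. The interaction was not fitted with only the groups compared, so that alternative has no value for it. Fewer arrays enter the fits within a wash batch, and in all other cases the cause of a lost call was not tested.

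Without PCN, the count of members called between genotypes fell from 2 to 0 with the processed signal (Cyp2d10 -1.45, Cyp2d26 -1.43), within wash batch 1 (-1.43, -1.45), within wash batch 2 (-1.49, -1.49), with the replicate block (-1.46, -1.47) and with trend and robust eBayes (-1.46, -1.47). It fell to 1, through Cyp2d10 at -1.46, with no filter, with no batch term and without the B cell arrays. Over these, adjusted p-values ran from 0.0506 to 0.646. Leaving out 1 array gave 0 to 2 calls, with values of -1.66 to -1.20 for Cyp2d10 and -1.66 to -1.21 for Cyp2d26. With PCN, the count fell from 2 to 1 with slide as a fixed block (Cyp4b1 -0.91), with the 2 groups alone (Cyp4b1 -0.94) and with the mean of a gene's probes (Cyp4f16 0.71). It fell to 0 within wash batch 1 (Cyp4b1 -0.93, Cyp4f16 0.80), within wash batch 2 (-0.95, 0.95) and without the B cell arrays (-0.82, 0.84). Leaving out 1 array gave 0 to 2 calls, with -1.04 to -0.81 for Cyp4b1 and 0.76 to 0.96 for Cyp4f16.

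The 4 called differences kept their sign throughout. Small changes that were not called changed sign. Within wash batch 1 these were Cyp2j6 (interaction 0.025, genotype without PCN 0.14), Cyp2j9 (PCN in WT 0.15, interaction 0.13, genotype with PCN -0.057), Cyp2s1 (interaction 0.11, genotype without PCN 0.067, with PCN -0.047), Cyp4f13 (PCN in Pxr-/- -0.035) and Cyp4f14 (PCN in WT -0.10). Within wash batch 2 they were Cyp2d10 and Cyp2d26 (genotype with PCN 0.16 and 0.15), Cyp2j9 (genotype without PCN -0.054), Cyp4f13 (PCN in WT 0.063, genotype without PCN -0.13) and Cyp4f14 (genotype with PCN -0.015). The difference without PCN in Cyp2j9 became -0.0032 with median centring, -0.0049 with the processed signal and -0.052 with slide as a fixed block, and that in Cyp4f13 became -0.011, -0.011 and -0.057, and -0.0028 with slide as a random block and -0.00022 in the deposited table. For PCN in WT, Cyp4f14 became -0.0029 with median centring, and without the B cell arrays Cyp2j9 became 0.14, Cyp4f13 0.037 and Cyp4f14 -0.029. Leaving out 1 array turned Cyp2j6 (genotype with PCN, -0.064 to 0.19), Cyp2j9 (PCN in WT, -0.19 to 0.045, and genotype without PCN, -0.030 to 0.051), Cyp2d10 (genotype with PCN, -0.38 to 0.019), Cyp4b1 (PCN in Pxr-/-, -0.023 to 0.16), Cyp4f13 (PCN in WT, -0.12 to 0.044, and genotype without PCN, -0.094 to 0.053) and Cyp4f14 (PCN in WT, -0.049 to 0.084, and genotype with PCN, -0.016 to 0.079).

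Over all probes, calls for PCN in WT fell from 259 to 48 within either wash batch and rose to 486 with no fold threshold. For PCN in Pxr-/- mice they went from 353 to 4, 155 and 1342. For the interaction, 29 became 3 and 0 within the wash batches and 16 both with slide as a fixed block and without the B cell arrays. Between genotypes without PCN, 53 became 4 and 23 within the wash batches, 257 with slide as a fixed block, 146 with the 2 groups alone and 81 with no fold threshold. With PCN, 137 became 77, 48 and 234. Leaving out 1 array gave 209 to 283, 230 to 428, 19 to 36, 33 to 113 and 114 to 191 calls in these 5 comparisons. Replicate numbers recur in each group and were not used to pair the samples in the main fit. Deviations of same-numbered arrays correlated between -0.204 and 0.434, with 6 of 33 pairs over 0.1. Arrays with different numbers were not compared, so these correlations do not decide whether the numbers pair the samples. Apart from the Cyp2d calls above, the replicate block changed no member's call, and it gave 220, 306, 23, 50 and 126 calls over all probes.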
